A study of Mus musculus with 15 samples.

Results

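Peptidylarginine deiminases are enzymes that turn the arginine residues of proteins into citrulline. Their genes Padi1, Padi2, Padi3 and Padi4 were followed in RNA sequencing libraries from the epithelium that lines the mouse uterus. The members were chosen by gene name, and they are 4 of the 28269 distinct gene identifiers in the series. All 4 are listed in the 6 wild-type libraries and in the 3 libraries of the U-OEx animals. They were not analysed in the 6 libraries of the E-OEX animals, whose tables list none of the 4. The family was picked with results of these same comparisons known, so the values of its members are given as a description, with no p-value.

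The series holds 15 libraries in 5 groups of 3, all labelled day 4. Luminal epithelium (LE) is the sheet of cells facing the cavity of the uterus, and glandular epithelium (GE) makes up its glands. The groups used here are wild-type LE, wild-type GE and U-OEx LE, the last from animals labelled as overexpressing Notch1, a cell-surface receptor that controls cell fate. The titles separate these animals from another Notch1-overexpressing group, E-OEX. The labels do not spell out either name, and give no promoter, Cre driver, age or strain. Nothing in them says whether the 3 libraries of a group came from separate animals, so errors measure the spread between libraries, which may be technical.

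Each deposited value is a read count divided by 1 factor per library, called a scaled read count below. The reads of all listed genes summed to between 3818041 and 4797424 in a wild-type library, and to between 13541644 and 14981505 in a U-OEx library. The wild-type sums cover 6414 listed genes only, and each of these genes differs by at least 2-fold between the LE and GE means. The U-OEx tables list 27946 genes. Luminal markers (4 of 5 listed) summed to between 12911 and 13692 in wild-type LE and to between 216 and 298 in wild-type GE. Glandular markers (7 of 7) summed to between 45.6 and 94.2 in LE and to between 30010 and 53008 in GE. Stromal markers (6 of 8, collagen genes among them) were also higher in GE, 29214 to 95176 against 195 to 5610 in LE, and so were smooth muscle markers (4 of 5), 2596 to 4669 against 81.6 to 230, and endothelial markers (5 of 5), 1940 to 3268 against 43.5 to 169. General epithelial markers (3 of 6) were lower in GE, 14856 to 15832 against 46881 to 55058. Krt7, Krt8 and Krt18, also on that marker list, are not listed for wild type. Since only genes that differ are listed there, these marker sums leave out any marker without such a difference. Notch1 itself was analysed in U-OEx LE only, where its scaled read counts ranged from 2789 to 3524. It does not check the genotype labels.

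The deiminases need calcium, and citrullination removes the positive charge of arginine, which can loosen protein contacts. Padi1 and Padi3 are best known from the skin and hair follicle, where they act on filaggrin, keratins and trichohyalin. Padi2 is the most widely expressed member and is known in muscle, brain and secretory epithelia. Padi4 carries a nuclear localization signal, modifies histones and is known for its role in neutrophil extracellular traps. Deiminase expression in the rodent uterus is known to respond to estrogen. The related gene Padi6, which encodes an oocyte protein, belongs to the same cluster.

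In GRCm38 the genes lie in a single cluster on chromosome 4, from Padi6 at 140727355 to the end of Padi2 at 140952586, a stretch of 225 kb that holds 5 protein-coding genes, all of them deiminases. Padi4 spans positions 140745865 to 140774236, Padi3 140785365 to 140810648 and Padi1 140812983 to 140845778, all on the minus strand. Padi2 spans 140906344 to 140952586 on the plus strand. GENCODE M21 gives merged exon lengths of 3754 bases for Padi1, 5013 for Padi2, 3447 for Padi3 and 4835 for Padi4. The non-coding gene Gm13032 overlaps exons of Padi1, and Gm13031 overlaps exons of Padi2. Whether counting used the strand, and how reads shared between the related genes were counted, are not given in the sources used here.

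The 250 bases before the start of Padi1, Padi2 and Padi4 are shown because these neighbouring genes had 3 different patterns across the groups. They come from the RefSeq table for GRCm38.p6 and are written 5′ to 3′ on the gene's own strand. RefSeq and GENCODE place the starts of Padi2 and Padi4 slightly differently, and the windows follow RefSeq. Capitals mark matches, on either strand, to the 7 motifs described next. The windows are chr4:140845779-140846028 (minus strand) for Padi1, chr4:140906110-140906359 (plus strand) for Padi2 and chr4:140774204-140774453 (minus strand) for Padi4.
Padi1: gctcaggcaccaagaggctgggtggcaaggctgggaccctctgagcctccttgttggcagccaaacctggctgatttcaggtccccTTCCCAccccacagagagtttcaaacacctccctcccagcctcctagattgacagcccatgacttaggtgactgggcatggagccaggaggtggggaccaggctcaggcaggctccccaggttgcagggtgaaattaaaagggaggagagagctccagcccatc
Padi2: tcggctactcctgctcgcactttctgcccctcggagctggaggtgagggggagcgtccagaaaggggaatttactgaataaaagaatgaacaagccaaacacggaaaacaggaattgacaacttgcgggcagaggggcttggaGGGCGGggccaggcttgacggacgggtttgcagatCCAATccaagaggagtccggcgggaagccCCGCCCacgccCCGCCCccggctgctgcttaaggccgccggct
Padi4: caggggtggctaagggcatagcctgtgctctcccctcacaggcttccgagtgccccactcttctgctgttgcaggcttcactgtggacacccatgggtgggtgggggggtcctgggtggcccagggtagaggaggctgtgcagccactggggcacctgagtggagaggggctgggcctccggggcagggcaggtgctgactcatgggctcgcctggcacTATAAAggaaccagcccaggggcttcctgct

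A motif bound by RBPJ, the DNA-binding partner of Notch, was searched by its core TGGGAA. An arm of the estrogen response element was searched as GGTCA. An arm of the progesterone response element was searched as AGAACA, and the site of HES repressors, which Notch induces, as CACGNG. Of the general promoter elements, the TATA box was searched as TATAAA, the GC box as GGGCGG and the CCAAT box by its name. No 2 matches overlap in these windows. TGGGAA was found once before Padi1, on the opposite strand and 164 bases upstream at its far end, and not before Padi2, Padi3 or Padi4. It is present in 21.6% of all 32851 windows of this length in the table. GGGCGG was found 3 times before Padi2 and once before Padi3, and is present in 32.7% of all windows. TATAAA was found once before Padi4, 31 bases upstream at its far end, and is present in 12.4% of all windows. CCAAT was found once before Padi2 and 2 times before Padi3, against 33.8% of windows with at least 1 match. The estrogen arm (35.2% of all windows), the progesterone arm (16.1%) and the HES site (23.5%) were found before none of the 4 members. The Padi2 window held 17 CG dinucleotides, the Padi1 window 0, and those of Padi3 and Padi4 held 3 each, against a median of 6 over all windows. The GC content was 60.0% for Padi1, 61.6% for Padi2, 56.0% for Padi3 and 66.0% for Padi4, against a median of 52.4%.

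Padi1, the deiminase best known from the outer epidermis, was low in wild-type LE and high in both wild-type GE and U-OEx LE. Replicates 1 to 3 had scaled read counts of 48.7, 64.5 and 74.9 in wild-type LE, 3641, 2127 and 4698 in wild-type GE, and 5506, 5055 and 5232 in U-OEx LE. No library of one group reached the values of another, and the U-OEx libraries lay within 1.09-fold of each other while the GE libraries spread over 2.21-fold. The number of reads behind the lowest values was 47 to 67 per library.

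Padi2, the widely expressed member, was also lowest in wild-type LE, but its highest values were in wild-type GE. Its scaled read counts were 96.3, 71.7 and 146 in wild-type LE, 1544, 940 and 1499 in wild-type GE, and 305, 676 and 294 in U-OEx LE. The 3 groups did not overlap. U-OEx replicate 2 was 2.30-fold above the lowest library of its group, a library in which the other 3 members did not stand apart.

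Padi3, the hair-follicle deiminase, was near the detection limit in all libraries. It had 0 reads in each of the 3 wild-type LE libraries, which allows up to 3 reads, or a scaled read count of 3.07 to 3.35. It had 12, 8 and 1 reads in wild-type GE and 7, 7 and 6 reads in U-OEx LE. Against 3 reads per wild-type LE library, its mean was at least 2.11-fold higher in the glands. In U-OEx LE it was at least 1.90-fold higher than that floor. Without GE replicate 1 the limit for the glands was 1.33-fold, and without GE replicate 3 it was 3.03-fold. These limits allow for counting error in wild-type LE only, and not in the few reads of GE and U-OEx LE. The third GE library was itself below that floor.

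Padi4, the deiminase with a nuclear localization signal, ran the other way between the wild-type epithelia. Its scaled read counts were 1263, 1631 and 1265 in wild-type LE, 53.5, 45.5 and 50.2 in wild-type GE, and 2355, 2638 and 2958 in U-OEx LE. Every LE library of either genotype was above every GE library, and every U-OEx library was above every wild-type LE library. Padi6 had 2 reads in U-OEx replicate 1 and 0 in the other 2 libraries, under the floor of 3 reads.

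**Figure D1:**
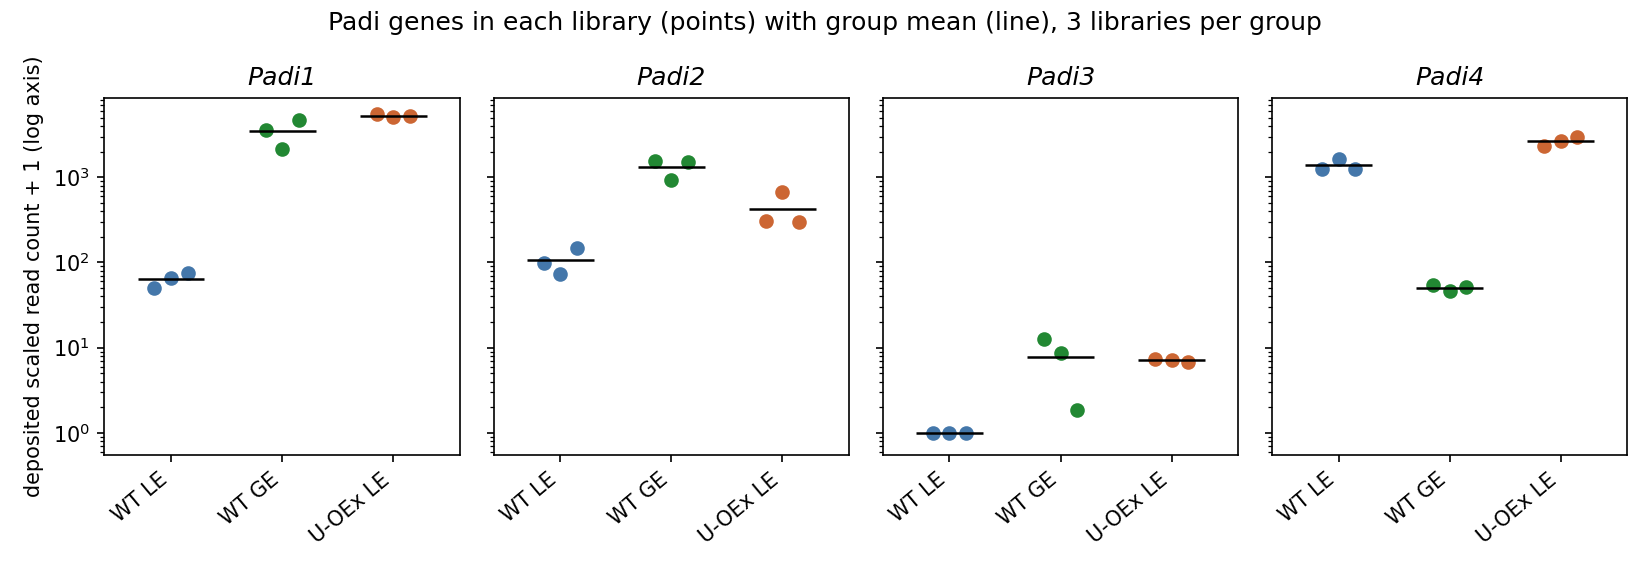
Scaled read count plus 1 (log axis) of each Padi gene in the 9 libraries that list it (points, 3 per group) with the group mean (line). Padi1 is low only in wild-type LE (48.7 to 74.9), Padi2 is highest in wild-type GE (940 to 1544), Padi3 is near the detection limit, and Padi4 is low only in wild-type GE (45.5 to 53.5).

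Levels of different genes can be compared only per length, so scaled read counts were divided by exon length in kilobases. In wild-type LE Padi4 came first at 287 ± 43.9 per kb (SD, n = 3), followed by Padi2 at 20.9 ± 7.60 and Padi1 at 16.7 ± 3.51, whose ranges overlapped. In wild-type GE Padi1 came first at 929 ± 344, then Padi2 at 265 ± 67.1, Padi4 at 10.3 ± 0.834 and Padi3 at 1.95 ± 1.58 (SD, n = 3 each). In U-OEx LE the order was Padi1 at 1402 ± 60.6, Padi4 at 548 ± 62.4, Padi2 at 84.8 ± 43.4 and Padi3 at 1.78 ± 0.0993 (SD, n = 3 each), with no overlap between neighbours in that order. Using the coding length in place of the exon length left every rank as it was.

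The make-up of the family therefore differed among the 3 groups. Padi4 made up 84.2% to 91.5% of the summed level per kb in wild-type LE libraries and 0.665% to 1.23% in wild-type GE libraries. Padi1 made up 4.42% to 6.42% in wild-type LE and 74.0% to 80.2% in wild-type GE, where Padi2 gave 19.2% to 24.5%. U-OEx LE libraries held both of the genes that lead in the wild-type epithelia, with 66.4% to 72.7% Padi1 and 24.2% to 29.6% Padi4. Padi2 gave 2.84% to 6.65% there, and Padi3 stayed at or below 0.287% in all 9 libraries. In bulk libraries, more cells with a transcript and more transcript per cell cannot be told apart, and it is not known whether Padi1 and Padi4 share cells in U-OEx LE.

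**Figure D2:**
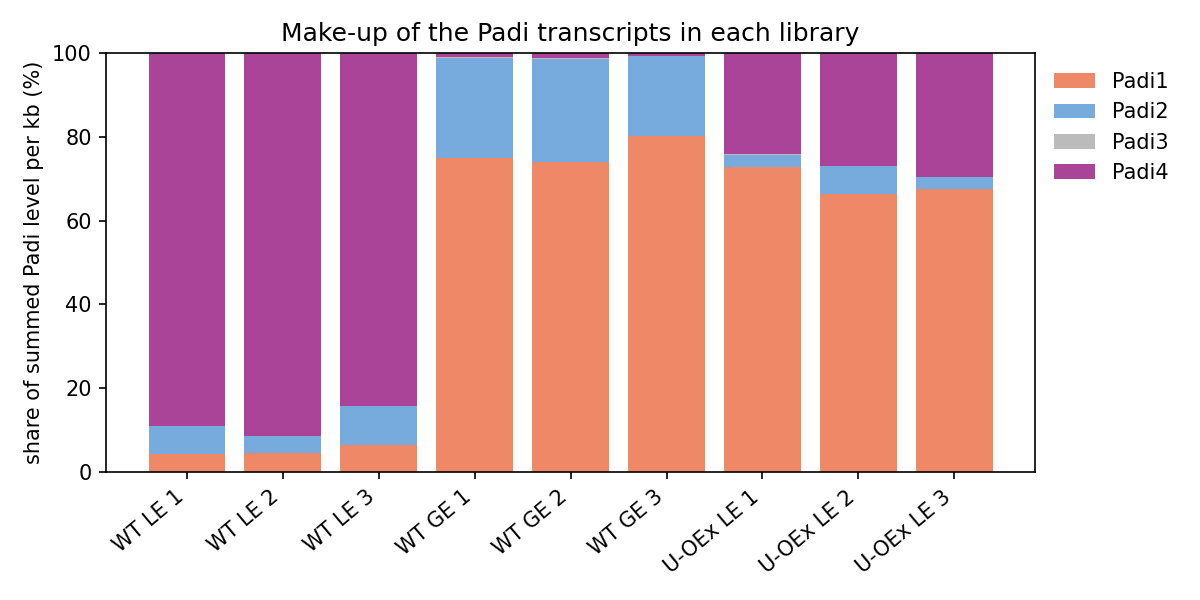
Share of each Padi gene in the summed scaled read count per kb of the 4 genes (y axis, percent; 1 bar per library). Wild-type LE is mostly Padi4 (84.2% to 91.5%), wild-type GE is Padi1 with Padi2, and U-OEx LE is Padi1 with Padi4.

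Since the U-OEx tables list 27946 genes and are not limited to genes that differ between the epithelia, the members can be placed among all genes there. By mean level per kb, Padi1 ranked 367th of the 27131 genes with an exon length. Padi4 ranked 1206th, Padi2 7661st and Padi3 20606th. Among the 20601 genes with reads in all 3 libraries, Padi1 stood above 98.2%, Padi4 above 94.1%, Padi2 above 62.8% and Padi3 above 7.70%. Padi1 and Padi4 were thus among the more abundant transcripts of this epithelium, while Padi3 was near the bottom of those detected.

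**Figure D3:**
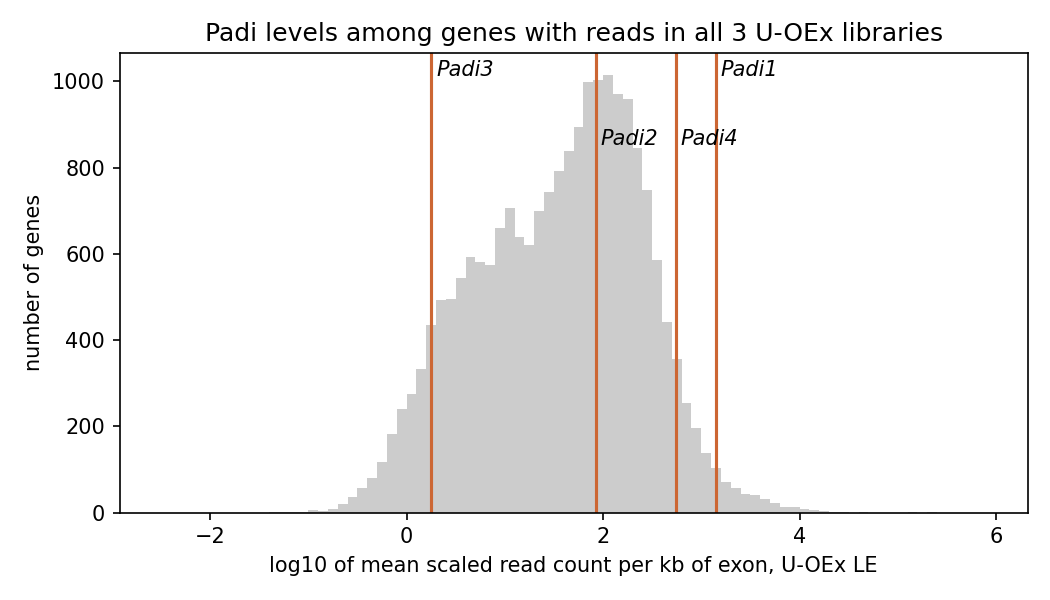
Number of genes (y axis) by log10 of the mean scaled read count per kb of exon (x axis) for the 20601 genes with reads in all 3 U-OEx LE libraries, with a line at each Padi gene. Padi1 (1402 per kb) and Padi4 (548 per kb) lie in the upper tail, Padi2 (84.8) near the middle and Padi3 (1.78) in the lower tail.

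The comparison of the wild-type epithelia asked how glands differ from the luminal lining. Padi1 had a mean of 3489 ± 1292 in GE and 62.7 ± 13.2 in LE (SD, n = 3 each), 55.6-fold apart, with a log2 fold change of 5.72 (SE 0.33) on the log2(value + 1) scale. Padi2 was 12.7-fold higher in GE, 1328 ± 337 against 105 ± 38.1, a log2 fold change of 3.68 (SE 0.33). The fitted log2 fold change of Padi3, 2.56 (SE 0.69), starts from 0 reads in LE, and it was 2.0 without GE replicate 1 and 3.38 without GE replicate 3. Padi4 was 27.9-fold higher in LE, 1386 ± 212 against 49.7 ± 4.03, a log2 fold change of -4.77 (SE 0.22). The group values did not overlap for any of the 4 members, 3 of them higher in GE and 1 lower. The same held for 95.9% of the 6414 genes tested, 55.9% higher and 40% lower, since the tables hold genes with a difference here, and nothing is read from the members' count.

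The GE library with the lowest Padi1 and Padi2 was replicate 2. Its stromal marker sum was 95176, against 46586 and 29214 in replicates 1 and 3, and its glandular marker sum was 30010, against 45069 and 53008. Padi1 in GE followed the order of the glandular sums and the reverse order of the stromal sums. It equally followed the endothelial sums, which were 2542, 1940 and 3268 in replicates 1 to 3. The leukocyte marker sums, 2795, 2418 and 4017, had the same order too. Padi2 was highest in replicate 1 and followed none of these orders. Nothing is read from such orders in 3 libraries. The part of stromal, smooth muscle, endothelial or leukocyte RNA in the GE levels of Padi1 and Padi2 was not tested. In U-OEx LE, Padi1 was at its highest while the stromal sum, rescaled with the wild-type libraries, was 243 to 1012, within the range of 197 to 5996 in wild-type LE. On that scale the luminal marker sum was 5862 to 9071 in U-OEx LE against 12986 to 14633 in wild-type LE, and the glandular sum (6 of 7 genes) was 1123 to 1553 against 46.2 to 99.6. The glandular markers did not move together: Foxa2, Lif and Cxcl15 made up the whole sum in U-OEx LE, and Spink1, Ttr and Prss29 had 0 reads in all 3 U-OEx libraries. The part of these shifts in the Padi1 and Padi2 levels was not tested.

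The comparison of U-OEx LE with wild-type LE asked what Notch1 overexpression changed in the luminal lining. The U-OEx and wild-type tables list different sets of genes, so genotype and any difference in how the tables were made cannot be told apart. Reads of the 6204 shared genes were rescaled together, which moved the mean of a member by about 2.0% at most. Padi1 was 83.4-fold higher in U-OEx LE, with a rescaled mean of 5290 ± 297 against 63.4 ± 9.59 (SD, n = 3 each) and a log2 fold change of 6.37 (SE 0.23). Padi2 was 3.98-fold higher, 425 ± 211 against 107 ± 37.2, a log2 fold change of 1.94 (SE 0.42). Padi4 was 1.89-fold higher, 2662 ± 297 against 1410 ± 168, a log2 fold change of 0.92 (SE 0.21). The fitted log2 fold change of Padi3, 2.84 (SE 0.48), starts from 0 reads and depends on the pseudocount. All 4 members were higher in U-OEx LE without overlap between the groups. Of the 5949 genes tested, 63.8% did not overlap, 32.7% higher and 31.2% lower, and nothing is read from the members' count. These genes are not the whole transcriptome. All are in the wild-type tables, which hold genes that differ between LE and GE, and the same LE libraries are the baseline here. Without U-OEx replicate 2, the log2 fold change was 1.61 for Padi2, 0.99 for Padi4 and 6.47 for Padi1.

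**Figure D4:**
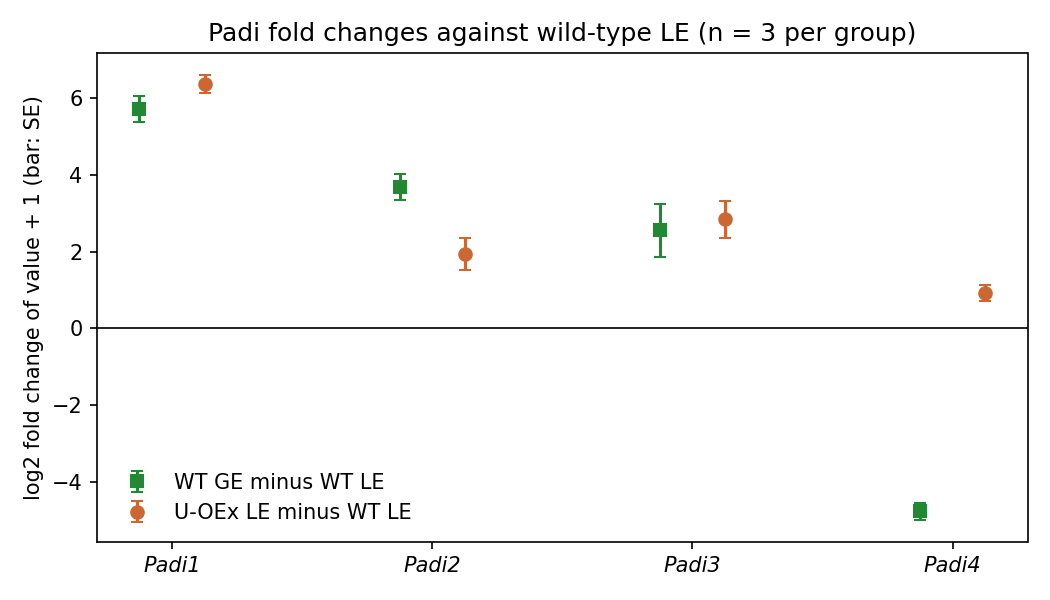
Log2 fold change of value + 1 (y axis; bars are standard errors, n = 3 per group) of each Padi gene in wild-type GE (squares) and U-OEx LE (circles), both against wild-type LE. Padi1, Padi2 and Padi3 lie above 0 in both, and Padi4 lies at -4.77 in wild-type GE and 0.92 in U-OEx LE. Both comparisons share the wild-type LE libraries.

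Set beside wild-type GE, U-OEx LE had 1.51 times its mean of Padi1 on the deposited scale and 1.73 times after joint rescaling of the 9 libraries. Padi2 was the reverse, with wild-type GE 3.12-fold above U-OEx LE on the deposited scale and 2.73-fold after rescaling. Padi3 overlapped between these groups, with a U-OEx mean of 6.14 ± 0.342 and a GE mean of 6.71 ± 5.46 (SD, n = 3 each). Padi4 was 53.3-fold higher in U-OEx LE on the deposited scale and 61.3-fold higher after rescaling. Padi1 in U-OEx LE was thus above its level in the wild-type GE libraries, Padi2 was between the wild-type epithelia, and Padi4 was above both. After joint rescaling, the stromal marker sum was 28426 to 91129 in these GE libraries and 243 to 1012 in U-OEx LE. The part of this difference in the ratios was not tested.

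Neutrophils are known to be rich in Padi4. Of 6 neutrophil markers, only Ly6g and Retnlg are listed in the wild-type tables. Their sum was 19.5 to 39.4 in wild-type LE and 12.1 to 58.8 in wild-type GE, with Retnlg at 0 in all 3 LE libraries and Ly6g at 0 in all 3 GE libraries. In U-OEx LE, 5 of the 6 markers are listed, and their sum was 21170, 3131 and 36194 in replicates 1 to 3. S100a8, an abundant neutrophil protein gene, was 6694, 456 and 10773 in these libraries, a 23.6-fold spread. After joint rescaling, Ly6g and Retnlg together summed to 18.8 to 1220 in U-OEx LE and to 20.8 to 39.9 in wild-type LE. Padi4 was 2355, 2638 and 2958 in the same libraries, a 1.26-fold spread, and Padi2 was 305, 676 and 294. The part of neutrophil RNA in the Padi4 and Padi2 levels was not tested. Leukocyte markers listed in both sets of tables (3 of 8) summed, after joint rescaling, to 618 to 1236 in wild-type LE, 2315 to 3909 in wild-type GE and 1570 to 2620 in U-OEx LE.

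Of the neighbouring genes, 2 were listed in both sets of tables. Arhgef10l, which encodes a guanine nucleotide exchange factor on the Padi6 side, rose in U-OEx LE to 1061 ± 142 against 134 ± 76.5 in wild-type LE (SD, n = 3 each), by 3.13 on the log2 scale (SE 0.42; adjusted p = 0.000418, limma). It was also higher in wild-type GE than in LE, 617 ± 110 against 128 ± 63.0, among genes selected for such a difference. Mfap2, a microfibril gene 3 genes beyond Padi2, was also higher in wild-type GE, 222 ± 111 against 38.9 ± 17.6, with a log2 fold change of 2.46. It was lower in U-OEx LE by a log2 difference of -2.53 (SE 0.59; adjusted p = 0.00704, limma). Rcc2, Sdhb and Atp13a2 were analysed in U-OEx LE only, at 4883 ± 296, 1136 ± 98.9 and 1258 ± 31.9 (SD, n = 3 each). Igsf21 was not analysed. Gm13032, which overlaps Padi1, was also higher in both groups. On the rescaled values it was at 83.5 ± 17.1 in U-OEx LE and 0.991 ± 1.72 in wild-type LE. On the deposited values it was at 34.4 ± 16.6 in wild-type GE and 1.02 ± 1.77 in wild-type LE (SD, n = 3 each). Its reads may not be told apart from those of Padi1 where the 2 genes overlap, since how such reads were counted is not given. Gm13031 had 0 to 4 reads in U-OEx LE.

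The genes whose pattern was most like each member were ranked by Pearson's r of log2 values over the 9 libraries, among 5238 other genes with a mean of at least 10 (5239 for Padi3). Because the libraries form 3 groups, r mostly reflects the order and spacing of the group means. For Padi1 they were Tfrc (r = 0.996), Hp (0.995), Gna14 (0.995), Tmem97 (0.993) and Pgap1 (0.992). For Padi2 they were Slc39a7 (r = 0.994), BC030870 (0.991), Pds5b (0.990), Creb3l2 (0.978) and Nr1i2 (0.978). For Padi4 they were Cables1 (r = 0.996), Kif14 (0.995), Mitd1 (0.994), Hsh2d (0.994) and Klk11 (0.993). For Padi3, with few reads, they were Serpinb2 (r = 0.970), Gm47827 (0.959), Cyp7b1 (0.954), G530011O06Rik (0.933) and 1110038B12Rik (0.930). A high r does not need a large contrast: Slc39a7, closest to Padi2, had means of only 57.0, 110 and 84.9 in wild-type LE, wild-type GE and U-OEx LE. Among the members themselves, r was 0.82 between Padi1 and Padi2, -0.22 between Padi1 and Padi4 and -0.68 between Padi2 and Padi4 over the same 9 libraries.

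Deiminases act on arginine within proteins. A fixed list held the enzymes and transporters that handle free arginine and citrulline, with the methyltransferases that modify arginine in proteins, and 12 of the 29 in the list are in the wild-type tables. In U-OEx LE against wild-type LE, 7 of 11 were called by limma at the 0.05 threshold, 5 higher and 2 lower. Of all 5949 genes tested, 56.9% were called, 29.1% higher and 27.8% lower. The list's median log2 fold change was 0.84, against 0.09 over all genes tested. Nos2, the inducible nitric oxide synthase, had a single read over the 3 wild-type LE libraries and scaled read counts of 8048, 2382 and 7361 in U-OEx LE (adjusted p = 5.53e-06, limma). Nos2 was lowest in replicate 2, the library with the lowest neutrophil marker sum (3131, against 21170 and 36194), and the part of leukocyte RNA in it was not tested. Arg1, an arginase, had a mean of 1052 ± 329 in U-OEx LE and 19.9 ± 5.86 in wild-type LE, 5.65 apart on the log2 scale (SE 0.36; adjusted p = 1.43e-05, limma). Its scaled read counts in U-OEx LE replicates 1 to 3 were 888, 834 and 1419, and the part of leukocyte RNA in Arg1 was not tested either. Ddah2, which breaks down methylated arginine, fell by 2.28 and Azin1, an inhibitor of antizyme, fell by 2.09 on the log2 scale (limma adjusted p = 0.000346 and 0.000143). In wild-type GE against LE, 11 of 12 listed genes were called, 8 higher in GE and 3 lower, with a median of 1.43 against 1.36 over all listed genes. Of those, 97% were called, 56.6% higher and 40.5% lower. Among the called genes, 58.3% were higher in GE, and 47.5% were with DESeq2 on the recovered reads. The largest differences were Slc7a2 (6.06) and Nos3 (4.20), higher in GE, and Ddah2 (-2.31) and Azin2 (-1.68), lower (log2 fold changes; adjusted p at most 0.00217, limma). Nos3 encodes the endothelial nitric oxide synthase, and endothelial markers were also higher in GE. The part of endothelial RNA in the Nos3 level was not tested.

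**Figure D5:**
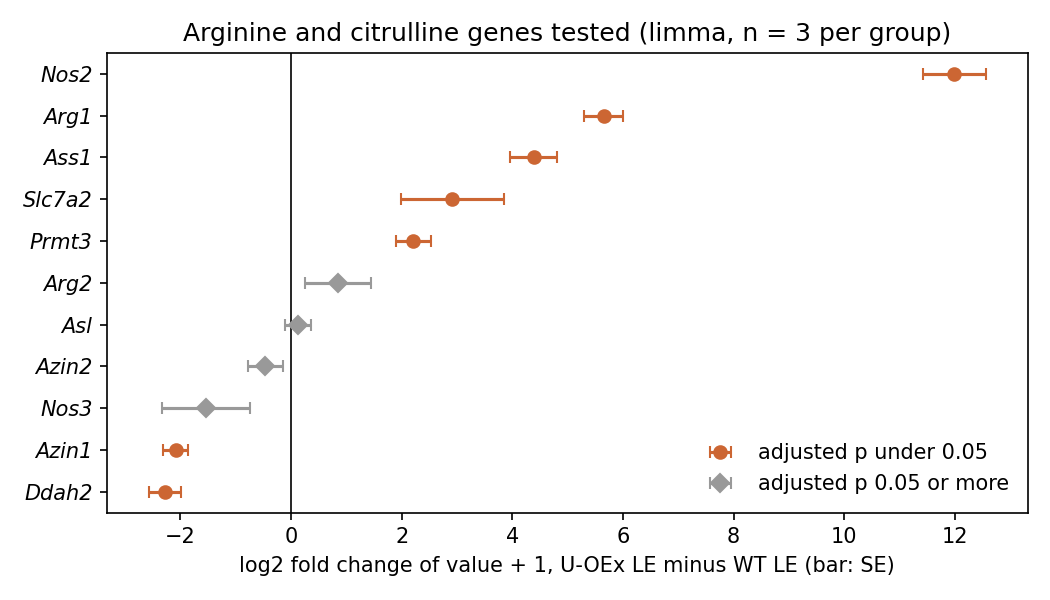
Log2 fold change of value + 1 in U-OEx LE against wild-type LE (x axis; bars are standard errors, n = 3 per group) for the 11 arginine and citrulline genes tested. Those called by limma at 0.05 are 5 higher and 2 lower, and the value of Nos2 starts from a single read in wild-type LE.

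Among genes of proteins known as deiminase substrates, 9 of 11 tested passed in U-OEx LE against wild-type LE, 6 higher and 3 lower (limma, adjusted p under 0.05), against 56.9% of all genes tested. Flg, which encodes filaggrin, averaged 109 ± 30.4 in U-OEx LE where wild-type LE held a single read over 3 libraries (SD, n = 3; adjusted p = 4.04e-05, limma). Cxcl5, a chemokine, was at 7151 ± 5395 against 82.0 ± 86.4 in wild-type LE, 6.74 higher on the log2 scale (adjusted p = 0.000763, limma). Its scaled read counts there were 12306, 1734 and 7176, lowest in the library with the lowest neutrophil sum, and the part of leukocyte RNA in it was not tested. Gfap fell by 2.21 and Cxcl12 by 1.97 on the log2 scale (limma adjusted p = 0.0037 and 0.02). The list had a median log2 fold change of 0.71. In wild-type GE against LE, 10 of 11 passed, against 97% of all listed genes, and 8 of them were higher in GE, with Col1a1 and Cxcl12 the largest at 5.81 and 5.35 on the log2 scale. Both are also abundant in stroma, whose markers were higher in GE. The falls were -4.16 for Gfap and -1.41 for Krt10 (adjusted p at most 0.00292 for the 4 genes, limma).

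Of all genes tested, 56.9% passed the limma threshold in U-OEx LE against wild-type LE, 29.1% higher and 27.8% lower. In wild-type GE against LE 97% passed, 56.6% higher and 40.5% lower. These shares stand beside every list count in this paragraph, and nothing is read from the counts. The cornification list holds partners of Padi1 and Padi3 in skin. In U-OEx LE, 10 of its 17 tested genes passed, 6 higher and 4 lower (limma, adjusted p under 0.05), with a median log2 fold change of 1.70. Sprr2b rose most, by 7.85 on the log2 scale (SE 1.02; adjusted p = 0.000365, limma), and Sprr2g had the largest fall, -3.32 (adjusted p = 0.00949, limma). Both belong to a family of near-identical genes among which reads may have been divided. Sprr2g varied widely in wild-type LE, with scaled read counts of 308, 5226 and 1219 in replicates 1 to 3. Flg was the next rise, at 6.42, and Krt10 the next fall, at -1.67 (adjusted p at most 0.00446, limma). In wild-type GE against LE the same list had 5 genes higher, 10 lower and a median of -2.24, a comparison that shares the wild-type LE libraries. Tchh, which encodes trichohyalin, and Tgm5 were higher in GE by 4.51 and 3.96, and Sprr2g and Sprr2a3 differed by -6.32 and -4.07 (log2; adjusted p at most 0.00559, limma). Calcium handling genes split evenly, 4 higher and 4 lower of 9 tested in each comparison. In U-OEx LE the calcium channel subunit gene Orai2 rose by 6.83 and the calcium release channel gene Itpr2 changed by -4.19 (adjusted p at most 1.05e-05, limma). The calcium channel gene Trpv6 rose by 3.52 and the calcium-binding protein gene Calb1 fell by 7.03 on the log2 scale (limma adjusted p = 0.000219 and 8.11e-06). In GE against LE the largest differences were 6.01 for Atp2a3, 4.76 for Orai2, -6.50 for Calb1 and -1.93 for Stim1 (adjusted p at most 0.000236, limma). Of 14 steroid-responsive genes tested, 5 rose and 4 fell in U-OEx LE, with a median of 0.10. Ltf, a textbook estrogen-induced gene of the uterine epithelium, rose by 6.89 (SE 0.66; adjusted p = 8.51e-05, limma). The progesterone receptor gene Pgr was lower by 1.96 on the log2 scale. It was picked after its value was seen, so this is a description with no p-value. Clca3a2 rose by 8.11, and Igf1 and Gata2 changed by -2.77 and -2.46 (adjusted p at most 0.0409, limma). Igf1 had scaled read counts of 20.7, 434 and 206 in wild-type LE replicates 1 to 3. The stromal marker sums of these libraries were 195, 5610 and 1709, and the part of stromal RNA in Igf1 was not tested. In GE against LE 9 of the 14 were higher and 3 lower, with Calca at 8.87, Aqp5 at 7.82, Acod1 at -6.39 and Gata2 at -1.04 (adjusted p at most 0.032, limma). Of the neutrophil and macrophage list, 3 of 5 tested genes rose and none fell in U-OEx LE, with Retnlg going from 0 reads in wild-type LE to 532 ± 494 and Adgre1 from 22.4 ± 17.3 to 85.3 ± 34.6 (SD, n = 3 each; adjusted p at most 0.0312, limma). In GE against LE 3 were higher and 2 lower, Retnlg and Lyz2 leading the first and Ly6g and Cd68 the second. Padi6, the remaining deiminase, was in neither comparison.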

How the data were processed

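Members and gene lists were chosen with earlier results of these data known. Libraries were made from total RNA with a Qiagen RNeasy kit and the NEBNext Ultra kit, per the labels' protocols, and the build is GRCm38 (mm10), per the submitters' processing notes. The aligner, counting tool, annotation and scaling method are not given in the sources used here. The authors' deposited signal is a read count divided by 1 factor per library. Every value of the wild-type and U-OEx libraries was within 0.01 of a whole multiple of the library's smallest positive value (100% of values), which gave back the reads.

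Symbols are those in the files. Exon lengths come from GENCODE M21. Values were compared with limma (version 3.58.1, R 4.3.3, eBayes with trend) on log2(value + 1) for genes with a mean of at least 1 (all 4 members passed, Padi3 only through wild-type GE and U-OEx LE), with Benjamini-Hochberg adjustment over all genes tested and a threshold of 0.05. Fold changes on this scale understate the change of low genes. The wild-type comparison used deposited values. U-OEx LE against wild-type LE used the recovered reads of 6204 genes found in both sets of tables, brought to a common scale by TMM in edgeR (version 4.0.16), because tables of different genotypes need not share a scale. A floor of 3 reads per library was used for genes at 0. Within-group pairs of libraries differed by a chi-square of 16.9 to 182 per degree of freedom, so no pair agreed within sampling noise. On simulated data with 6204 genes, 58% of 2-fold and 97% of 4-fold changes were recovered in the U-OEx comparison. The simulation gave every gene the same dispersion and changed 100 genes by each fold, all with a mean of at least 10 reads. These rates are therefore not the power for the real libraries. The alternatives included edgeR and DESeq2 (version 1.42.0) on the recovered reads. The planned comparisons with E-OEX were not used, since those tables list no member. Genes named from a list are the 2 largest rises and 2 largest falls past the threshold with a group mean of at least 10. The 3 nearest protein-coding genes on each side of the cluster and the 5 genes most like each member were also named, and Pgr was added after its values were seen.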

Additional observations from a re-analysis of the deposited data

How the results depend on the processing

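No member changed direction under any alternative run. Of 84 alternative values of the members' log2 fold changes, 72 moved by less than 1 SD between libraries. The replicate block and the missing filter are not counted, as they cannot move a difference of means here. Leaving out a wild-type LE library could not move Padi3 in GE against LE either, as each has 0 reads. Those runs are still among the 84. In wild-type GE against LE, DESeq2 on the recovered reads gave 5.17 for Padi1, 3.003 for Padi2, 4.45 for Padi3 and -5.43 for Padi4, and it moved the median of all genes by -0.67 (edgeR by -0.26, and DESeq2 by -0.17 in U-OEx LE against wild-type LE). edgeR gave 5.66 for Padi3 and -5.03 for Padi4. With DESeq2 the share of called genes that were higher in GE went from 58.3% to 47.5%. A pseudocount of 0.1 gave 5.47 for Padi3 in GE, and leaving out single libraries gave 2.0 to 3.38. In U-OEx LE against wild-type LE, Padi3 was 5.97 with a pseudocount of 0.1, 5.66 in edgeR, 4.85 in DESeq2 and 2.97 in 1 fit over the 3 groups, and 2.83 to 2.91 when single libraries were left out. Its wild-type LE group is at 0 reads, so these values rest on the prior count.

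The number of genes called stayed within 1.5 times its main value in all 25 alternatives. Counts were 5548 to 6108 of a main 6223 in wild-type GE against LE, and 2757 to 3439 of a main 3384 in U-OEx LE against wild-type LE, when single libraries were left out. edgeR on the recovered reads called 6130 and 3232 genes. With the replicate number as a block, 6187 and 3182 genes were called. Same-numbered libraries correlated in their deviations at 0.05, 0.09 and -0.01 in the first comparison and at 0.08, -0.14 and 0.03 in the second. These values do not settle whether wild-type LE and GE of the same number came from the same animal, which the labels do not say. In the first comparison 2 of 3 numbers correlated best with themselves, and in the second 1 of 3. Under the block the SE of Padi4 in GE against LE was 0.30, against 0.22 without it. Depth limits Padi3, with at most 12 reads, and no other member.
The planned comparisons with E-OEX were not run, since those tables list no member.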
